A study of Homo sapiens with 4 samples.

Results

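The 10 genes described here are SOX1, SOX4, SOX5, SOX6, SOX8, SOX9, SOX10, SOX11, SOX17 and SOX21, relatives of SOX2 chosen by name. For each gene, every listed interval that overlapped the gene body or the 50 kb on either side was taken, which gave 53 of 58827 intervals in all. BJ cells, an established human foreskin fibroblast line, had expressed V5-tagged SOX2, or its V5-tagged DNA-binding domain alone (SOX2-DBD), for 48 h. Binding was mapped by CUT&RUN, in which an antibody, here against the V5 tag, directs a nuclease to the chromatin that carries the protein. The labels name 2 samples per group; peak lists of replicate 1 were analysed, which left 1 list per group, no spread between replicates and no test between groups. The labels give neither the vector and promoter that drove either protein nor a sample without one, so no background level was measured here.

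SOX proteins bind DNA through an HMG box, a domain that bends the helix at short sequences related to ACAAAG and ACAATG. The family is divided by sequence: SOX1 is of group B1 with SOX2, SOX21 of B2, SOX4 and SOX11 of C, SOX5 and SOX6 of D, SOX8, SOX9 and SOX10 of E, and SOX17 of F. Members of different groups can recognise the same core sequence, and many are known for specifying neural, cartilage, neural crest or endodermal fates.

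The SOX2 list held 57907 intervals and the SOX2-DBD list 15220. Intervals present at identical positions in both lists (14300) are called shared, those of the SOX2 list alone SOX2-only (43607), and those of the SOX2-DBD list alone SOX2-DBD-only (920). A shared interval carries the same signal values in both lists, and the group in which they were measured is not stated. Total signal is the authors' value for each interval; its normalization and the sequencing depth are not given in the sources used here, so it serves only to describe and rank intervals within a list. A gene with 0 intervals is one where no interval passed the authors' unstated threshold.

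Sites near 4 genes of different subfamilies show the sequence under the intervals. Each is the 200-bp window at the centre of an interval, or the whole interval where that is shorter, and within each subfamily the window with the most SOX core motifs was taken. The SOX core motif is ACAAAG or ACAATG on either strand, and capitals mark it; all are on the plus strand of hg19.
SOX6, intron, chr11:16143952-16144151: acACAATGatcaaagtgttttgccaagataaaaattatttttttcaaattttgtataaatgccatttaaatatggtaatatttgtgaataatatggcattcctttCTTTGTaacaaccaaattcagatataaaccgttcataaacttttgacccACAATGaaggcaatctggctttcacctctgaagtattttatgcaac
SOX21, downstream, chr13:95359162-95359263: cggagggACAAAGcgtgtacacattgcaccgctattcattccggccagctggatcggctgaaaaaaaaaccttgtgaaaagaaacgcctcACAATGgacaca
SOX4, upstream, chr6:21566447-21566646: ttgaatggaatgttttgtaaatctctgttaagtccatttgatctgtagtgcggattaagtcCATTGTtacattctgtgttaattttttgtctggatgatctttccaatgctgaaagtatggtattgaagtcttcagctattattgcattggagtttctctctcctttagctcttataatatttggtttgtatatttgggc
SOX10, upstream, chr22:38407556-38407755: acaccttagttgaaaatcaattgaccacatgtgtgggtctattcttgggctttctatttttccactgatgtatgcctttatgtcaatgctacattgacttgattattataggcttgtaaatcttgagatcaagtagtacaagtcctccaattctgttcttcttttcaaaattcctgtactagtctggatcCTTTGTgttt
The SOX6 window held 3 core motifs, the SOX21 interval 2, and the SOX4 and SOX10 windows 1 each.

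The intervals were concentrated on SOX6. Of the 53 intervals, 48 (90.6%) lay at SOX6, 3 at SOX21, 1 at SOX4 and 1 at SOX10. SOX1, SOX5, SOX8, SOX9, SOX11 and SOX17 had 0. By class, 45 were SOX2-only and 8 were shared, and none was SOX2-DBD-only. An interval of the SOX2 list was thus present at 4 of 10 genes, against 69.5% of 20163 protein-coding genes in windows drawn the same way. That count depended on the window: it was 1 in gene bodies, 2 with 10 kb either side and 8 with 200 kb, alternatives chosen after seeing the data. The share of all protein-coding genes was computed only with 50 kb either side, so these alternative counts stand without a comparison. An interval of the SOX2-DBD list was present at 3 of 10 (SOX4, SOX6 and SOX21), against 39.3%, and a SOX2-DBD-only interval at 0 of 10, against 4.72%. Over the 10 windows together the density of SOX2-list intervals was 0.867 times that of the autosomes (0.649 to 1.13, exact Poisson 95% interval for the count), and without SOX6 the remaining 5 intervals gave 0.118 times. The Poisson interval covers counting error alone and treats the sites as independent. It does not cover the spread between genes, since 48 of the 53 lay in 1 window. The shared class made up 8 of the 53 (15.1%, Wilson 95% confidence interval 7.85 to 27.1), against 24.7% of the whole SOX2 list, a share that this confidence interval contains, and 3 of 5 without SOX6. The SOX core motif was in 31 of 53 windows (58.5%, 45.1 to 70.7) and in 15 of 53 (28.3%) 10 kb downstream, against 47.3% and 27.7% in the whole SOX2 list, and in 4 of 5 without SOX6. The median number of SOX2-list intervals was 0 per gene among the 10 and 2 among all protein-coding genes.

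Gene length bears on these counts, because a longer window can hold more intervals. Apart from SOX5 and SOX6, the genes are short, and their windows are under 130 kb. Of these 8 genes, 3 had a SOX2-list interval and 2 had a SOX2-DBD-list interval, against 57.0% and 25.9% of the 10637 protein-coding genes with windows of that length. With so few genes, neither count was tested.

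**Figure D1:**
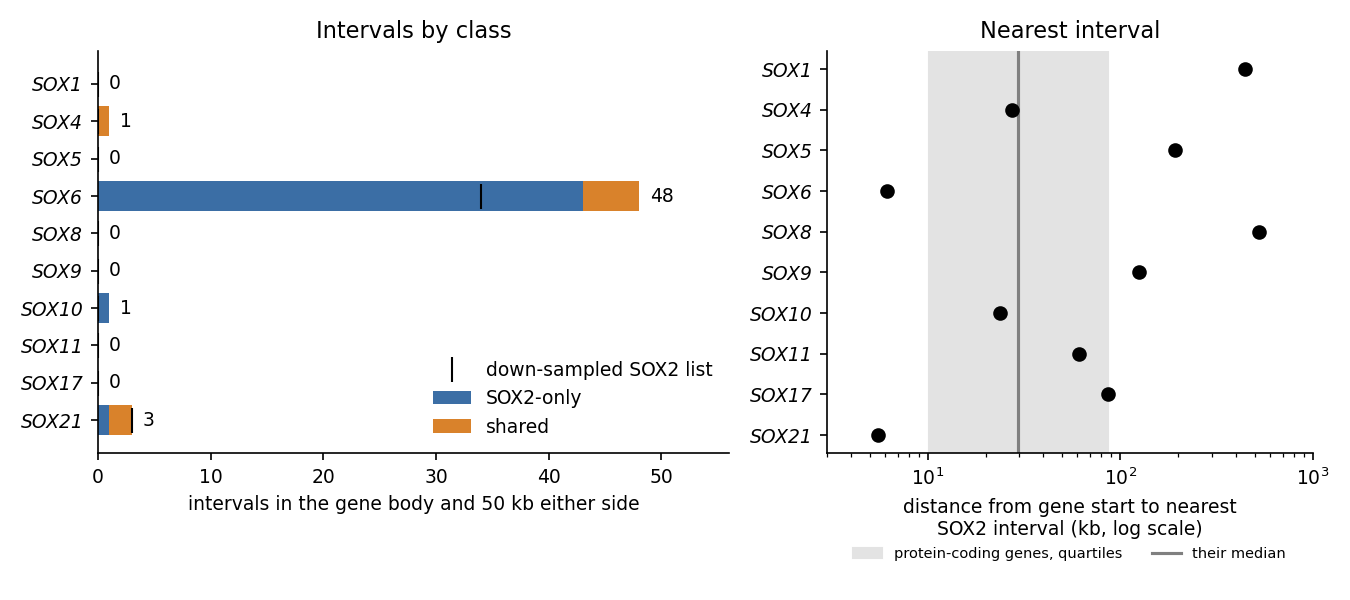
Left, number of intervals in the gene body and 50 kb either side of each SOX gene, SOX2-only in blue and shared in orange, with the number of down-sampled SOX2 intervals as a black tick and the SOX2-list count printed; SOX6 has 48 and the next gene, SOX21, has 3. Right, distance in kb (log scale) from the gene start to the nearest SOX2-list interval, with the quartiles (grey band, 10.2 to 86.2 kb) and median (grey line, 29.4 kb) of all protein-coding genes; SOX1 and SOX8 lie farthest to the right.

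SOX6 and SOX5 form group D, whose proteins have a coiled-coil domain for pairing, lack a known activation domain of their own, and act together with SOX9 in cartilage. Both genes are long. SOX6 (hg19 chr11:15987995-16761138, minus strand) spans 773 kb and held 48 intervals in its window, 43 SOX2-only and 5 shared. SOX5 (chr12:23682438-24715478, minus strand) spans 1033 kb and held none in its body or flanks, in either list or in the down-sampled SOX2 list.

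The density in the SOX6 window was 55.0 SOX2-list intervals per Mb, against 21.4 per Mb of determined sequence over the autosomes. Among the 324 protein-coding genes with bodies of at least 500 kb, the median was 12 intervals per window and 12.9 per Mb; 25 genes had more intervals than SOX6 and 28 a higher density. Over all protein-coding genes, 27 had more intervals than SOX6. Other long genes also lacked intervals, as SOX5 did: 80.9% of the 324 had a SOX2-list interval in the window and 62 had none, and of the 69 genes at least as long as SOX5, 18 had none.

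The stretch without intervals at SOX5 was longer than the gene. It ran for 1767 kb, from a SOX2-only interval at chr12:23141377-23141939 in LINC02955, a long non-coding RNA gene, to a SOX2-only interval at chr12:24909341-24909901. Of the 58322 gaps between neighbouring autosomal intervals, 136 were at least as long, those over centromeres included. Sequence composition was measured in the SOX5 and SOX6 windows, and its relation to the number of intervals was not tested. The SOX core motif occurred 1.79 times per kb in the SOX5 window and 1.86 times per kb in the SOX6 window, against 1.61 per kb over the autosomes. The AP-1 motif, TGACTCA or TGAGTCA, occurred 0.135 and 0.145 times per kb, and GC content was 36.1% and 37.0%. The share of 31-base words found at several places in the genome was 6.60% at SOX5 and 10.7% at SOX6. Chromatin state and expression of these genes were not analysed here.

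**Figure D2:**
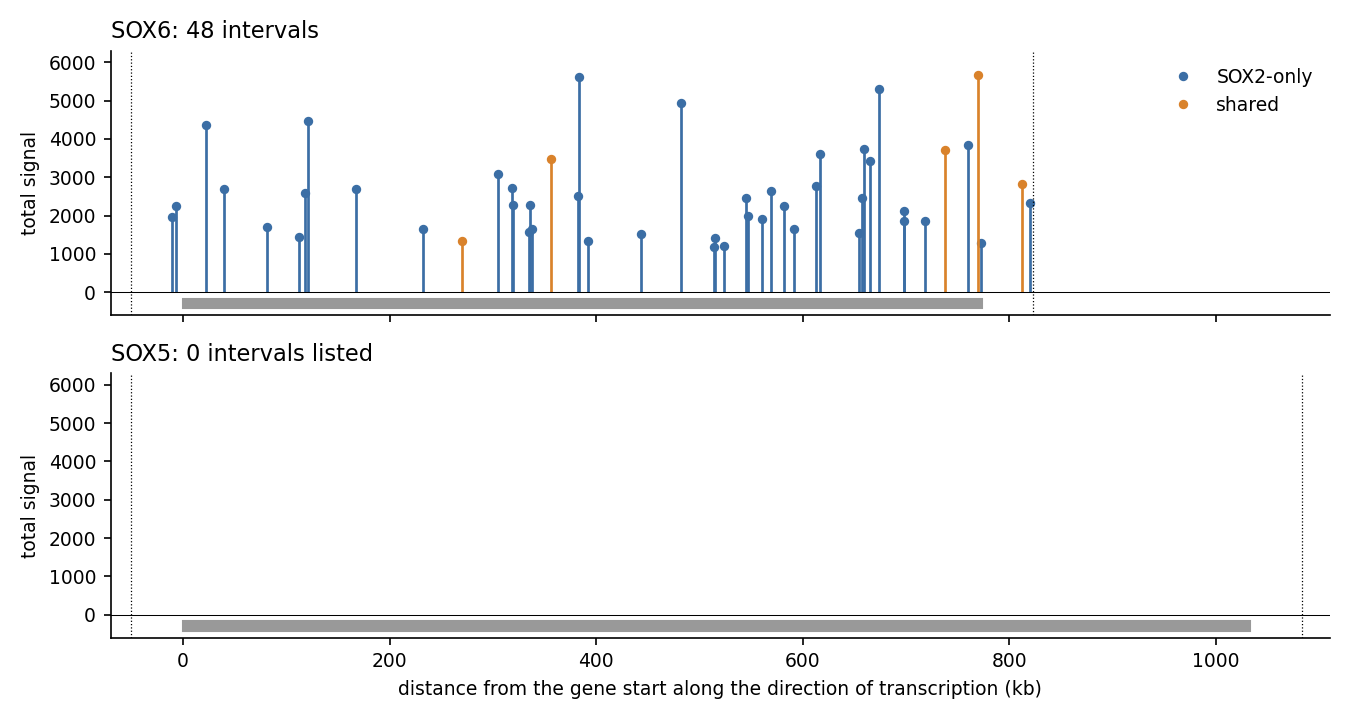
Intervals at SOX6 (top) and SOX5 (bottom), placed by distance in kb from the gene start along the direction of transcription, with height equal to the total signal of the interval; SOX2-only intervals are blue and shared ones orange. The grey bar is the gene body and dotted lines mark the limits of the 50-kb flanks; 48 intervals are spread along SOX6 and 0 are listed at SOX5.

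Within the SOX6 window, 40 intervals lay in introns, 4 overlapped exons, 2 lay upstream of the gene and 2 downstream. When the body was divided into 3 parts of 258 kb, the part at the 5′ end held 8 intervals, the middle part 15 and the part at the 3′ end 21. The MANE Select transcript, the agreed reference isoform, is 390 kb long and covers the 3′ portion, with 26 of the 44 body intervals; the 383 kb before its start, covered by longer isoforms, held 18. Neighbouring intervals lay a median of 11.9 kb apart, with gaps from 70 bp to 64.4 kb. Of the 48, 24 fell into 11 runs of neighbours under 5 kb apart, and the other 24 stood alone. A run of 3 at chr11:16101857-16107654 had total signals from 1541 to 3745, and another of 3 at chr11:16423269-16426734 from 1561 to 2277. In 8 cases, the 2 upstream of SOX6 included, the interval overlapped C11orf58, a protein-coding gene that overlaps the 5′ portion of SOX6. The 2 intervals downstream of SOX6 overlapped the long non-coding RNA gene LINC02682.

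The SOX6 intervals resembled the whole list in size and signal. The SOX2-only intervals had a median total signal of 2272.0, with a lowest value of 1188 and a highest of 5627, against a median of 2278.0 for all SOX2-only intervals. Of the 43, 20 were above that median. Their median width was 571 bp, against 559 bp. Over both classes, the lowest of the 48 exceeded 0.216% of the SOX2 list and the highest 94.4%.

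The highest listed total signal at SOX6 belonged to a shared interval, whose value may come from another library than those of the SOX2-only intervals it is ranked with. It lay at chr11:15991173-15991947, over the untranslated part of the last exon, with a total signal of 5657, above 94.4% of the SOX2 list. Next was a SOX2-only interval at chr11:16377881-16378896, with 5627. It covered the start of the MANE Select transcript (position 16378092). The third was SOX2-only, at chr11:16086269-16087923 in an intron, with 5304; at its centre 61.8% of the 31-base words occur elsewhere in the genome, the highest share of the 48, and it was not found in the down-sampled list. Of the SOX6 windows, 41 had no such word.

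The 300 bases before the MANE Select start of SOX6, which lie wholly inside the interval of 5627, are shown because this interval covers the reference start. They are given in the direction of transcription, the minus strand, with SOX core motifs in capitals.
SOX6, before the start, chr11:16378093-16378392: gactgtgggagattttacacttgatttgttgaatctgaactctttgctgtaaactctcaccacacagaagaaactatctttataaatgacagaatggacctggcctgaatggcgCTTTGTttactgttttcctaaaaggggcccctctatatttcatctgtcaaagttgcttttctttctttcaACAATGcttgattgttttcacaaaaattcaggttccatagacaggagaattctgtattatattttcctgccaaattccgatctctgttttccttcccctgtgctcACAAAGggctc
This stretch held 3 core motifs, but the 200-bp window at the centre of the interval held 0. The same 300 bases held at least 1 in 19% of 18922 protein-coding MANE Select transcripts. That share is for 1 or more motifs, and the share with 3 was not counted. The stretch at SOX6 had a GC content of 39.0%, and the transcripts of comparison were not matched for GC content.

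Some other starts of SOX6 were also close to intervals. The annotation gives 17 distinct starts, and 5 intervals had their centre within 1 kb of one, named here after their values were seen. The share of the whole list this close to an annotated start is not given here, so the 5 have no comparison. A SOX2-only interval at chr11:16455663-16456448, with a total signal of 3089, covered a start. SOX2-only intervals at chr11:16423269-16423905 (1656) and chr11:16424782-16425295 (2277) lay near starts without covering one. A shared interval at chr11:16404491-16404941 had a total signal of 3475, and the interval over the MANE Select start is described above. The fourth exonic interval, SOX2-only, lay at chr11:15988979-15989419 over untranslated sequence, with 1279. None of the 4 exonic intervals overlapped coding sequence.

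The DNA-binding domain was listed at 5 of the 48 SOX6 intervals (10.4%, Wilson 95% confidence interval 4.53 to 22.2), against 24.7% (24.3 to 25.0) of the whole SOX2 list. This confidence interval does not contain the 24.7%, and the difference was not tested. Like the others given for shares, it covers counting error alone, since the sites of 1 list are not replicates. The shared intervals had total signals from 1347 to 5657, with a median of 3475.0, against 2742.0 for all shared intervals. Their centres lay 270, 356, 738, 770 and 812 kb from the gene start, the last of them downstream of the gene. The part at the 5′ end, with 8 of the 44 body intervals, thus had no shared interval, a difference that was not tested with so few. The SOX2 list has a seventh column of unstated meaning, whole numbers up to 6 in shared rows. It was 3 at the exonic interval of 5657, 2 at the intronic interval chr11:16023406-16023865 (3720) and 0 at the remaining 3. Over the whole list it was at least 1 in 34.5% of shared intervals, and over the 10 genes in 3 of 8.

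The share of SOX6 windows with a SOX core motif was 27 of 48 (56.2%, 42.3 to 69.3), and 14 of 48 (29.2%, 18.2 to 43.2) held one 10 kb downstream. In the whole SOX2 list the shares were 47.3% and 27.7%. The confidence interval at SOX6 contains the share of the whole list at the centres, and the difference was not tested. Of the 48, 7 windows had at least 2 core motifs, 20 had 1 and 21 had none. The longer form AACAATAG or AACAATGG, of which AACAATGG includes the core, was in 2 windows (4.17%, against 3.62% of the list).

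The AP-1 motif was in 5 of the 48 windows (10.4%, 4.53 to 22.2), against 9.14% of the list. In windows 10 kb downstream it was in 0 of 48 (0 to 7.41%), an interval that contains the 2.98% of the list there. At the centres, the AP-1 motif was present in 3 of 43 SOX2-only and 2 of 5 shared windows at SOX6. In the whole list it was in 6.59% of SOX2-only and 16.9% of shared windows. The TEAD motif GGAATG was in 18.8% (10.2 to 31.9) of the SOX6 windows, against 16.3% of the list. In windows 10 kb downstream the TEAD shares were 8.33% (3.29 to 19.6) at SOX6 and 10.4% in the list. The AP-1 and TEAD motifs contain neither SOX form. Mean GC content was 35.7%, against 33.9% in the list.

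**Figure D3:**
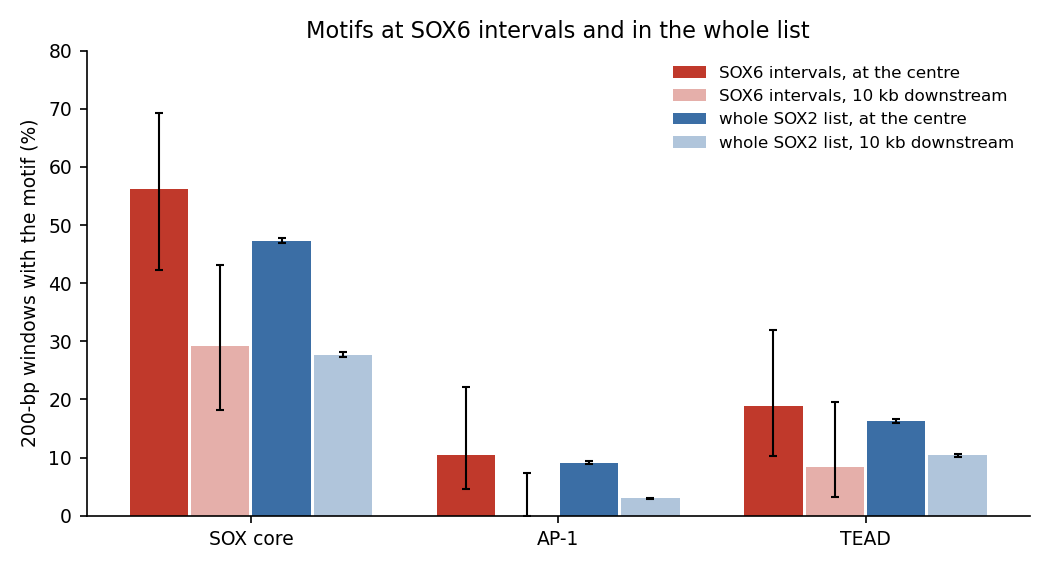
Percentage of 200-bp windows holding the SOX core, AP-1 or TEAD motif at the centres of the 48 SOX6 intervals (red) and of the whole SOX2 list (blue), with windows 10 kb downstream in the paler shade; bars start at 0 and error bars are Wilson 95% confidence intervals. The SOX core is present in 56.2% of SOX6 windows and 47.3% of the list, and the wide SOX6 intervals include the values of the list.

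SOX21, a group B2 protein that opposes B1 factors in neural progenitors, had 3 intervals, all downstream of the gene (chr13:95361876-95364799, minus strand). The nearest, shared, lay at chr13:95359162-95359263, 2.61 kb beyond the gene end, over the long non-coding RNA genes LINC00391 and SOX21-AS1. It was 102 bp wide with a total signal of 2457. A SOX2-only interval at chr13:95332924-95333426 had a total signal of 2103, and a shared interval at chr13:95329384-95329730 had 1461. At both shared intervals, and at the shared interval of SOX4, the region given for the maximum signal lay at least partly outside the interval, as in 3 of the 8 shared intervals in all. Both SOX21 ones recurred in the down-sampled list and had 0 in the seventh column. The down-sampled list held 1 further interval in this window, at chr13:95312847-95313250, which overlapped no interval of the full SOX2 list. The density at SOX21 was 29.1 SOX2-list intervals per Mb, from 3 intervals.

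Group B1 was represented by SOX1, which like SOX2 is expressed in neural progenitors. No interval lay within 200 kb of it (chr13:112721463-112726020). The nearest were SOX2-only, 717 kb upstream with a total signal of 2707 and 439 kb downstream, in TUBGCP3, with 1906.

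In group C, SOX4 and SOX11 are known for neuronal differentiation. SOX4 (chr6:21593982-21598850) had 1 interval, shared, at chr6:21566403-21566690, 27.3 kb upstream of the gene. Its total signal of 1777 was above 27.8% of the SOX2 list, its seventh column was 1, and it was not found in the down-sampled list. The printed window holds 1 match of the longer SOX form. Within 200 kb of SOX4 there were 6 intervals and within 1 Mb there were 68. SOX11 (chr2:5832516-5841517) had 1 interval within 1 Mb, the lowest such count of the 10 genes. That interval was shared and lay just outside the window, 61.3 kb upstream at chr2:5771002-5771230, over the long non-coding RNA gene LINC01248, with a total signal of 1224 and a seventh column of 1. Downstream of SOX11 the next interval was 1171 kb away.

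In group E, SOX9 directs cartilage and testis development, SOX10 the neural crest and its glia, and SOX8 overlaps with both. SOX10 (chr22:38366693-38383429, minus strand) had 1 interval, SOX2-only, at chr22:38407374-38407938. It lay 23.9 kb upstream, within the gene POLR2F, which encodes a subunit of RNA polymerases, with a total signal of 2991, above 66.0% of the list, and was not found in the down-sampled list. SOX9 (chr17:70117161-70122557) had none in its window; the nearest was a SOX2-only interval 125 kb upstream with a total signal of 1213, and 36 lay within 1 Mb. SOX8 (chr16:1031770-1036979) had none within 200 kb and 6 within 1 Mb. The nearest, both SOX2-only, were 524 kb upstream in RAB11FIP3 and 714 kb downstream in JPT2. The SOX8 window had the highest GC content of the 10, 58.5%, and the lowest frequency of the SOX core motif, 0.741 per kb.

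SOX17, of group F, acts in endoderm and in the lining of blood vessels. It had none in its window (chr8:55370495-55373452 and its flanks), and 2 within 200 kb, both SOX2-only. These were 144 kb upstream with a total signal of 3766 and 83.7 kb downstream, in RP1, with 1301.

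Measured from the gene start, the nearest SOX2-list interval was a median of 74.0 kb away among the 10 genes, against 29.4 kb (quartiles 10.2 and 86.2) among all protein-coding genes. In order, SOX21 lay at 5.54 kb, SOX6 at 6.17 kb, SOX10 at 23.9 kb, SOX4 at 27.3 kb, SOX11 at 61.3 kb, SOX17 at 86.6 kb, SOX9 at 125 kb, SOX5 at 194 kb, SOX1 at 444 kb and SOX8 at 524 kb. Of the 10, 6 were above the median of all genes and 5 above the upper quartile. A distance shorter than that of SOX8 was found for 96.6% of genes, and shorter than that of SOX21 for 14.3%. These distances have no replicate error, so neighbours in the order cannot be separated.

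**Figure D4:**
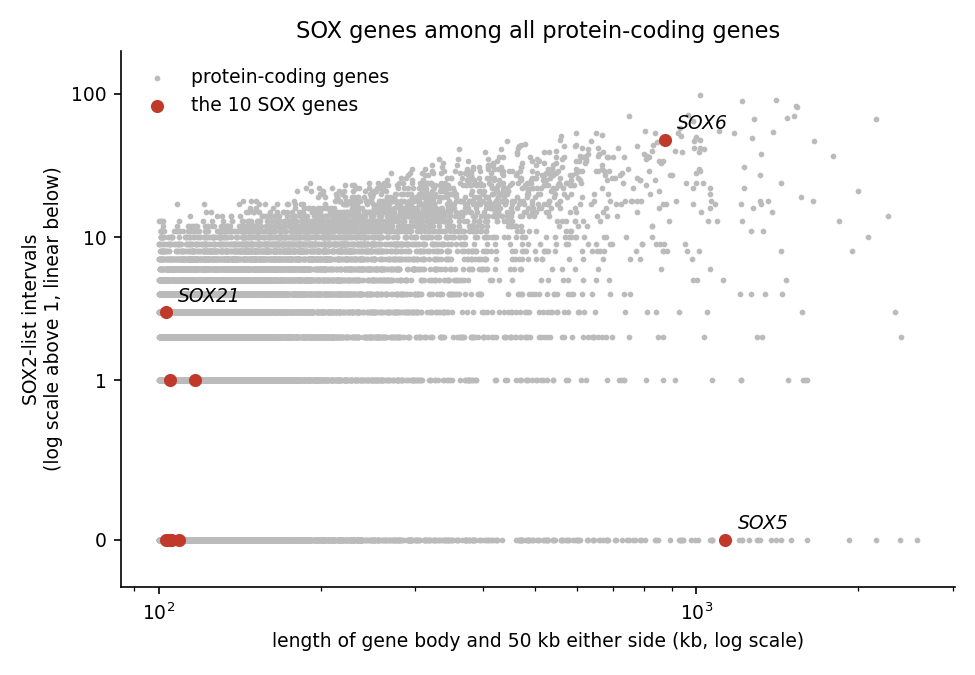
Number of SOX2-list intervals (log scale above 1, linear below) against the length of the gene body and 50 kb either side (kb, log scale) for all 20163 protein-coding genes (grey) and the 10 SOX genes (red). SOX6, with 48 intervals, lies near the top of genes of its length, and SOX5 lies at 0 beside other long genes.

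The remaining 9 SOX genes outside chromosome Y were counted for comparison. SOX2, SOX7 and SOX30 had SOX2-list intervals (1, 2 and 8), as 3 of 9, against 69.5% of all protein-coding genes. SOX2, SOX13 and SOX30 had SOX2-DBD-list intervals, also 3 of 9, against 39.3%. SOX3, SOX12, SOX14, SOX15 and SOX18 had none. The SOX2-DBD-only interval at SOX13, the D-group relative of SOX5 and SOX6, lay at chr1:204026315-204027628 with a total signal of 8920. The interval at SOX2, which is shared, lies over an exon of the gene that was expressed ectopically. Its total signal was 95465.

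The down-sampled SOX2 list placed intervals at 2 of the 10 genes, SOX6 with 34 and SOX21 with 3, against 62.0% of all protein-coding genes. The only intervals at SOX4 and SOX10 were not in it. Of the 53 member intervals, 36 (67.9%, 54.5 to 78.9) were found in it, against 64.3% of the SOX2 list. At SOX6 the number was 34 of 48 (70.8%, 56.8 to 81.8), made up of 31 of 43 SOX2-only and 3 of 5 shared intervals. Its positions come without signal values, and the labels give no account of the down-sampling.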

How the data were processed

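Intervals were taken as hg19 and matched to the GRCh37 sequence and GENCODE release 44 mapped to it; 0 intervals reached beyond a chromosome end. Total and maximum signal are the authors' deposited values. Bowtie2 2.3.4.1, SAMtools, bedtools 2.27.1, SEACR 1.3 and deepTools 3.5.0 are named in the submitters' processing notes without their roles; threshold, control, depth and pooling of replicates are not given in the sources used here, so the depth behind each count is unknown. Exact duplicate rows (1654 in each list with signal) were counted once. Overlap was counted from 1 bp. Distances from a gene were measured from its edge and distances from a start from the outermost start unless stated.

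Motifs were sought on both strands in 200-bp windows at interval centres, and repeated sequence as 31-base words occurring more than once in the genome. Intervals on shares are Wilson 95% confidence intervals. With 1 list per group, p-values were not computed. Alternatives changed the flank, the overlap rule, the handling of rows, the list, the signal threshold, the motif and the genes included. The genes and the lists of comparison were chosen with earlier results of these data known. All 10 genes were named, with every interval of genes holding at most 5; at SOX6 the rule was the 3 of highest total signal, the nearest to a start, any SOX2-DBD-only interval and the 2 highest shared. The code was tested on simulated data: 2000 of 2000 window counts and 1000 of 1000 planted motifs were recovered. Versions were python 3.11.15, matplotlib 3.10.9, scipy 1.17.1, pandas 2.3.3 and numpy 2.4.6.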

Additional observations from a re-analysis of the deposited data

How the results depend on the processing

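No paired analysis was possible because the only lists analysed are attached to replicate 1 of each group, and there was no replicate to omit. Of 68 alternative values, 44 stayed within 1.5 times the count or within the confidence interval. SOX6 decides the counts: leaving it out, an alternative chosen after seeing the data, left 5 SOX2-list and 3 SOX2-DBD-list intervals, with 60% of the former (3 of 5) shared, a density of 0.118 times that of the autosomes (0.867 with all 10 genes) and the SOX core motif in 80%. Leaving out SOX5 as well gave 5, 3, 60% and a density of 0.274 times. The SOX2-DBD-list count of 8 became 4 in gene bodies only, 5 with 10 kb either side, 16 with 200 kb and 3 in the upper 50% by total signal, where the SOX2-list count of 53 became 25 by construction. The genes with a SOX2-DBD-list interval, 3 of 10, were 1 in gene bodies, 5 with 200 kb and 1 in the upper 50%. The genes with a SOX2-list interval, 4 of 10, were 1 in gene bodies, 2 with 10 kb either side, 8 with 200 kb and 2 in the down-sampled list, all chosen after seeing the data. Shares of all protein-coding genes were not computed for gene bodies or for flanks of 10 and 200 kb. Neither set of gene counts therefore has a comparison there. The density was 0.582 times that of the autosomes with 200 kb. The motif share of 58.5% became 39.6% in 100-bp windows, by construction. It became 13.2% with the longer motif WWCAAWGG (W is A or T), of which only some forms contain the core. The shares of the whole list at these settings are not given here. The unknown depth limits any reading of the genes with 0 intervals.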
